A study of Drosophila melanogaster with 12 samples.

Results

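The genes described here lie in pericentric heterochromatin, the condensed DNA beside the centromeres of Drosophila chromosomes. They were chosen by name: a fixed list of 25 gene symbols, plus every symbol made of CG40 and 3 further digits. The rule found 39 genes among the 14303 genes of the deposited table, and all 39 are protein-coding. The table came from RNA sequencing of ovaries from females aged 4 days. D1 mutant ovaries, labelled D1 Kyoto over D1 Bsc666, gave 3 libraries. Control ovaries, labelled D1 Kyoto over the balancer TM6C, gave the other 3 libraries, so the controls also carried a D1 mutant allele. Both genotypes were in a chk2 mutant background, which removes the DNA damage checkpoint kinase Chk2. The labels state about 5 ovaries per genotype, whereas the study's methods state about 5 pairs for each sample. The labels also give germline cell as the cell type, although whole ovaries were used. The table holds no values per library, so each level below is the authors' mean normalized count over all 6 libraries, with no SD. D1 mutant and control ovaries therefore could not be compared here, and a level describes ovaries of both genotypes together.

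Pericentric heterochromatin is built mostly of satellite DNA and mobile elements. It is packaged with histone H3 methylated at lysine 9 and with the protein HP1, a state that silences most genes placed into it. A set of resident genes is nevertheless transcribed there. Some of them, such as light and rolled, are known to need this surrounding and to lose activity when a rearrangement moves them away from it. D1, the protein removed in the mutant, carries AT-hook motifs and binds satellite DNA made of AATAT units in the same compartment.

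The ovary label was checked against marker genes, since the design text of the series names testes. The germline genes nos and osk averaged 36523 and 29523 normalized counts, and vas averaged 4989. The eggshell gene Cp36 averaged 141711 and the yolk protein gene Yp2 averaged 161945. All 5 testis markers were near the floor of the table, between 2.53 normalized counts for dj and 11.2 for aly. Genes of the muscle sheath around the ovary were present, with 3974 normalized counts for Mhc. D1 averaged 6038 normalized counts over both genotypes, which does not check the genotype labels.

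The 39 genes covered a wide part of the range of gene levels in the ovary. Levels are compared between genes as the mean normalized count divided by the kilobases of exon, the merged length of all annotated exons. By this measure the 39 genes ran from percentile 10.6 to percentile 98.2 of all genes with a length. On this scale the median of the 39 genes was 1245, against 215 for the 14155 other genes with an annotated length, a ratio of 5.80. The quartiles of the other genes were 9.23 and 1285. Of the 39 genes, 26 lay above the median of the other genes and 19 lay above their upper quartile. The other 13 lay below that median, so a position in pericentric heterochromatin went with neither a high nor a low level throughout. Members and other genes differ in kind as well, since all 39 are protein-coding. Against the 12106 other protein-coding genes, whose median was 325, the ratio was 3.83. The nearest comparison was with the 101 other protein-coding genes that lie on the centromere side of the outermost of the 39 genes on each arm. Their median was 858, and the ratio to them was 1.45. The ratio also rested on genes with few reads and on genes with repeated exon sequence. Among genes with a mean of 10 normalized counts or more it was 2.20. Among genes with no 100-base exon window that recurs in the genome it was 1.27, and the 22 members of this kind had a median of 310, below the 325 of the other protein-coding genes. No test was made of these ratios, because the genes were chosen by name and 1 mean per gene carries no replicate error.

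**Figure D1:**
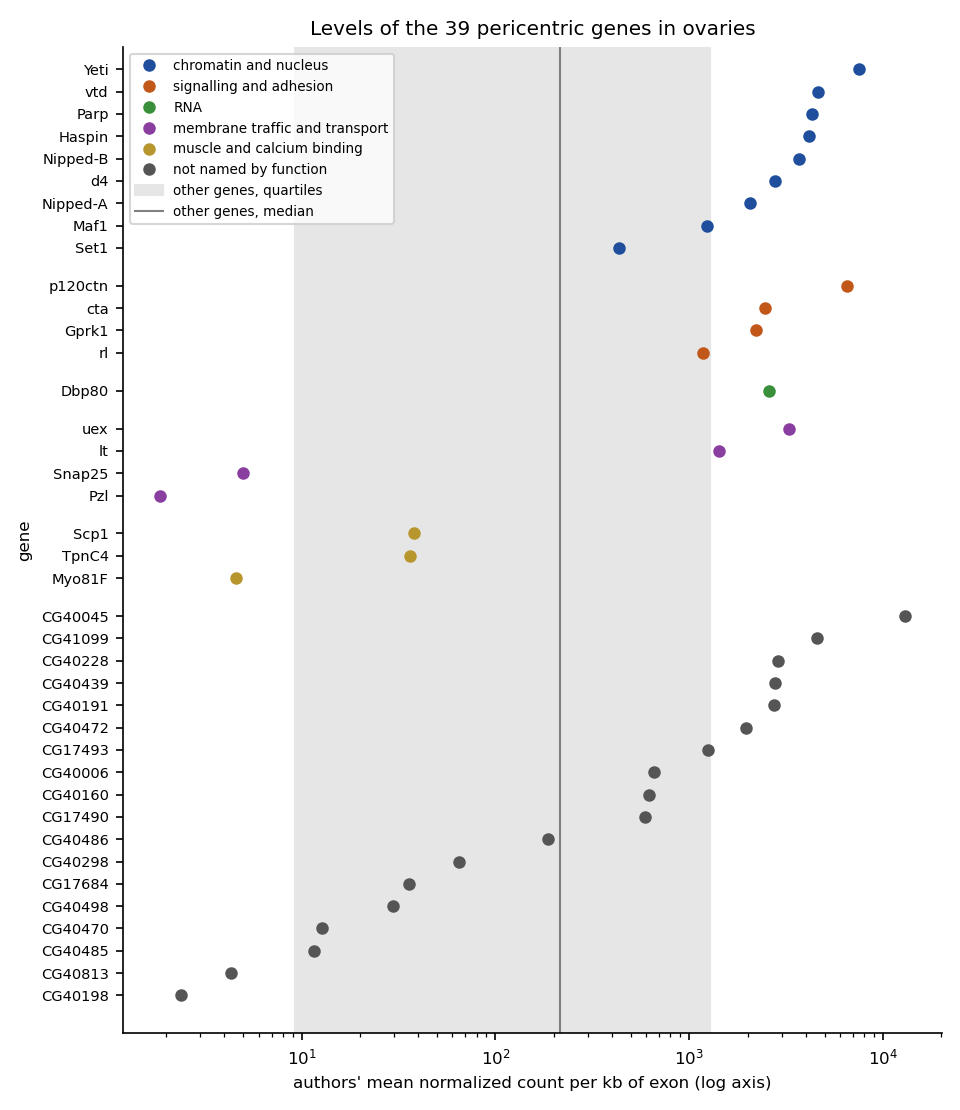
Each point is 1 of the 39 genes, placed by the authors' mean normalized count per kb of exon on a log axis and grouped by role. The grey line and band mark the median and the quartiles of the other genes, 215 and 9.23 to 1285. All 9 chromatin genes lie right of the line, and all 3 genes grouped as muscle and calcium binding left of it.

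In what follows, the 26 genes above the median of the other genes are termed the upper set and the 13 genes below it the lower set. The lowest gene of the upper set was Set1 at 435 normalized counts per kb, and the highest of the lower set was CG40486 at 186. The upper set had a median of 2657 per kb, and the lower set had a median of 12.8 per kb. The sorted levels had other gaps of similar or greater width, such as that between CG40486 and CG40298 at 64.9 per kb, so the sets are a convenience of description.

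Genes for chromatin and nuclear proteins formed the largest group with a known role, and all 9 lay above the median of the other genes. Yeti, which encodes a chromatin protein, was highest at 7545 normalized counts per kb. The cohesin subunit gene vtd, the fly Rad21, followed at 4596 per kb. Nipped-B encodes the factor that loads cohesin onto chromosomes and stood at 3667 per kb, with the highest undivided mean of the 39 genes, 24608 normalized counts. Parp, the gene of poly(ADP-ribose) polymerase, had 4285 per kb. Haspin, which encodes a kinase of histone H3, had 4151 per kb. The PHD finger gene d4 had 2773 per kb. Nipped-A encodes the large scaffold subunit shared by the SAGA and Tip60 acetyltransferase complexes and had 2065 per kb. Maf1, the gene of a repressor of RNA polymerase III, had 1242 per kb. Set1, the gene of an H3 lysine 4 methyltransferase, was the lowest of the group at 435 per kb. The highest gene of the group stood more than an order of magnitude above the lowest.

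The 4 genes of signalling and adhesion were all above the median of the other genes. The gene of p120 catenin, p120ctn, whose product binds E-cadherin at cell contacts, led with 6553 normalized counts per kb, and of the 39 genes only CG40045 and Yeti were higher. The cta gene encodes a G protein alpha subunit that acts in cell shape change, and its level was 2475 per kb. The kinase gene Gprk1, whose product phosphorylates G protein-coupled receptors, had 2213 per kb. The MAP kinase gene rl, the fly ERK, had 1172 per kb. Dbp80, which encodes a DEAD-box RNA helicase, had 2570 per kb and was the only member placed with RNA functions.

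Membrane and transport genes were split between the upper and the lower set. The uex gene encodes a membrane protein of the CNNM magnesium transporter family and had 3275 normalized counts per kb. The lt gene encodes Vps41, which acts in the delivery of vesicles to lysosomes and pigment granules, and had 1424 per kb. Snap25 encodes a SNARE protein of synaptic vesicle fusion and had only 4.97 per kb, from a mean of 11.4 normalized counts. Pzl, the gene of a Piezo-like channel, was the lowest of all 39 at 1.87 per kb, from a mean of 12.1 normalized counts. At levels this low, how many of the libraries held any reads is not known.

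All 3 genes grouped as muscle and calcium binding were in the lower set. Scp1, which encodes a sarcoplasmic calcium-binding protein, had 38.2 normalized counts per kb. The troponin C gene TpnC4 had 36.2 per kb. Myo81F, an unconventional myosin gene that was grouped with them as a myosin, had 4.59 per kb. The muscle sheath gene Mhc stood at 439 per kb in the same ovaries, so these 3 genes were far below a major muscle gene that was detected there.

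The 18 genes named only by number spread over nearly the full range of the 39 genes. CG40045 was the highest of all 39 at 12952 normalized counts per kb, and it ranked at percentile 98.2 of all genes with a length. CG41099 followed with 4584 per kb, then CG40228 with 2871, CG40439 with 2778 and CG40191 with 2744 per kb. CG40472 had 1965 per kb and CG17493 had 1245 per kb. CG40006, CG40160 and CG17490 lay between 591 and 659 per kb. The other 8 genes were in the lower set. CG40486 had 186 per kb, CG40298 had 64.9, CG17684 had 35.6 and CG40498 had 29.8 per kb. CG40470 and CG40485 had 12.8 and 11.7 per kb. CG40813 and CG40198 had 4.30 and 2.39 per kb, each from a mean under 4 normalized counts, 3.46 and 3.75. Names by number thus covered both the highest gene and some of the lowest.

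Other genes known to lie in pericentric heterochromatin also ranged from very high to near the floor. The ribosomal protein genes RpL15, RpL38 and RpL5 had 110931, 44806 and 42752 normalized counts per kb, above any of the 39 genes. The translation factor gene eIF4B had 10874 per kb, with 100% of its exon windows of 100 bases recurring in the genome, and AGO3, a gene of the piRNA pathway, had 4791 per kb. The polyadenylation factor gene su(f) had 620 per kb. The ecdysone synthesis genes nvd and spok had 238 and 3.28 per kb.

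By arm, 15 of the 39 genes lie on chromosome arm 2R, 10 on 3L, 6 on 2L, 5 on 3R and 3 on X. All lie within 521 to 5503 kb of the centromere-side end of the assembled arm. None of the 6 genes on 2L was in the lower set, against 4 of 15 on 2R, 3 of 10 on 3L, 3 of 5 on 3R and 3 of 3 on X. With 3 to 15 genes per arm these are counts only. Consecutive members along an arm, between which other genes may lie, could differ widely in level. CG40045 stood at 12952 normalized counts per kb, whereas Snap25, which begins 38320 bases beyond its end, had 4.97 per kb, a ratio of 2604. This was the largest ratio among consecutive members. On the other side of CG40045, CG40470, 42104 bases away, had 12.8 per kb. CG40486 and CG40485, 517 bases apart on the same strand, had 186 and 11.7 per kb. In contrast, Nipped-A and d4, on opposite strands and 7981 bases apart, had 2065 and 2773 per kb, and lt and cta, 38680 bases apart, had 1424 and 2475 per kb.

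The genes were on the whole longer than other genes, and more by their introns than by their exons. The median span from start to end was 18341 bases in the 39 genes and 2089 bases in the other genes. The median exon length was 2685 bases in the 39 genes and 1677 bases in the other genes, a much smaller gap. Exons made up a median of 18.9% of the span in the 39 genes and 87.1% in the other genes. Of the 39 genes, 24 spanned at least 10 kb (61.5%), against 13.6% of the other genes. Among the neighbouring protein-coding genes, 42.6% spanned at least 10 kb, and their median span was 6408 bases. The genes were not alike in this. Exons made up over 70% of the span in 13 of the 39 genes, among them CG40298, CG17493, CG40439 and Yeti, and under 10% in another 13. Together the 39 genes spanned 4.50 Mb, of which 2.88% was exon, a share set mainly by the longest genes.

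Of the 39 genes, 9 spanned at least 100 kb (23.1%), against 0.565% of the other genes and 5.94% of the neighbouring protein-coding genes. These long genes were found in both the upper and the lower set. Myo81F was the longest with a span of 1966 kb, and its exons made up 0.332% of it. Pzl spanned 709 kb, CG17684 spanned 396 kb, Snap25 spanned 225 kb and CG40470 spanned 147 kb. These 5 were in the lower set. The other 4 were in the upper set. Gprk1 spanned 149 kb, Dbp80 spanned 143 kb, CG40006 spanned 134 kb and Parp spanned 126 kb, with exon shares between 1.66% and 2.48%. The longest gene of the upper set was thus shorter than the 4 longest of the lower set. Over the 39 genes, Spearman's rho between span and level per kb was -0.08, across genes that are not independent of each other. In the other protein-coding genes it was -0.01.

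**Figure D2:**
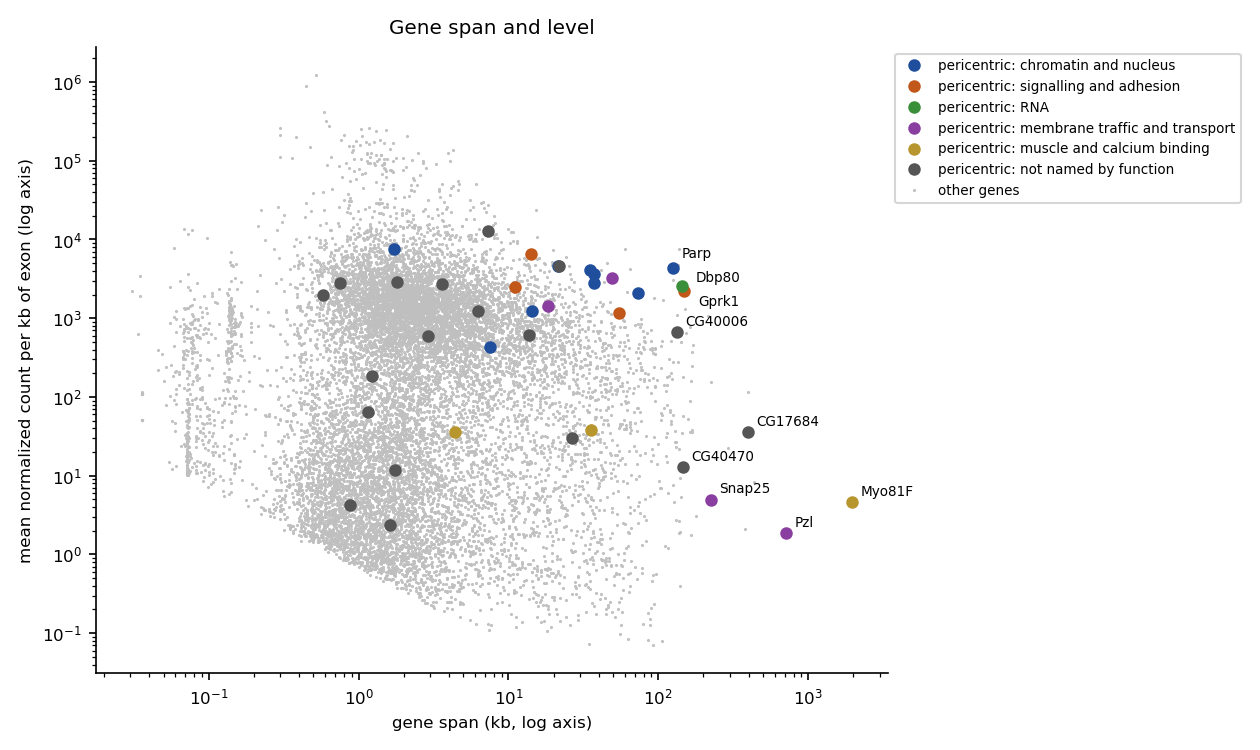
Each point is 1 gene, with its span in kb on the horizontal log axis and its mean normalized count per kb of exon on the vertical log axis. The 9 labelled genes span at least 100 kb, and 4 of them, Parp, Dbp80, Gprk1 and CG40006, lie in the upper set of levels.

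The position of the genes in repeats was checked with 2 annotations that gave different counts. In the RefSeq annotation, mobile elements took up 20% or more of a window reaching 100 kb to either side of the gene's midpoint for 8 of the 39 genes, against 2.52% of the other genes. Among the neighbouring protein-coding genes the share was 52.5%, and their median of 21.2% in elements was above the 4.73% of the 39 genes. CG40298 was highest with 65.1%, followed by p120ctn with 57.1%, Nipped-B with 56.4%, TpnC4 with 55.2%, Nipped-A with 54.6% and d4 with 51.9%. CG40485 and CG40486 had 33.8% each. The other 31 genes lay at or under 10.9%. In the soft-masked bases of the same genome, which mark repeats of any kind, all 39 genes had at least 25.2% of the same window masked, and the median was 35.1%. The other genes had a median of 15.5%, and 4.80% of them reached the lowest value of the 39 genes. Genes with few annotated elements thus lay in windows as strongly masked as the rest. Set1 had 1.64% annotated elements and 48.3% masked bases, the highest of the 39. The neighbouring protein-coding genes had a median of 30.8% masked bases.

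**Figure D3:**
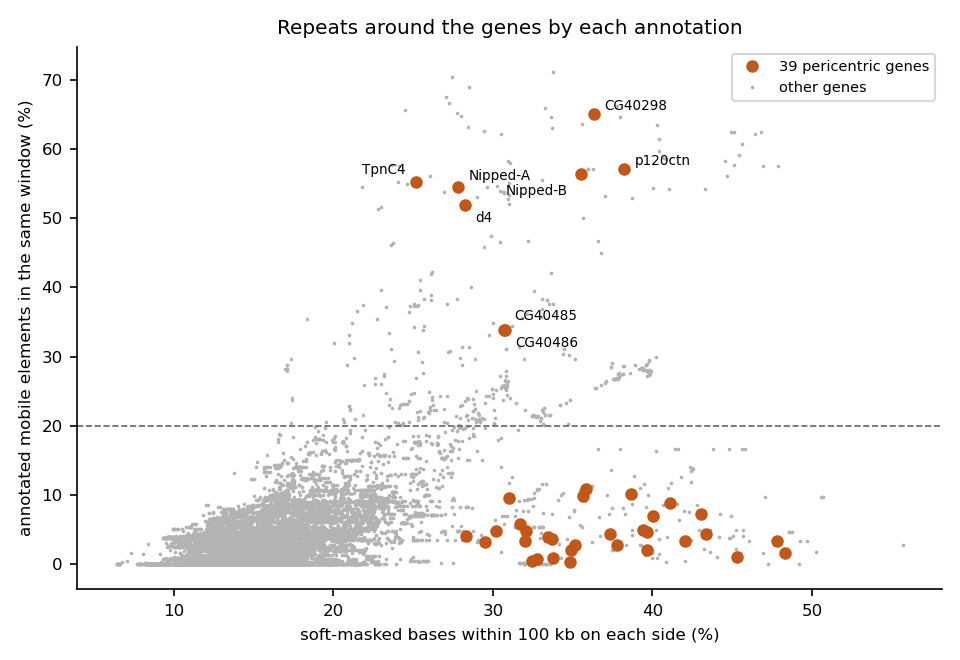
Each point is 1 gene, with the percentage of soft-masked bases in the window of 100 kb to either side on the horizontal axis and the percentage in annotated mobile elements on the vertical axis. All 39 pericentric genes lie at 25.2% masked bases or more, and 8 lie above the dashed line at 20% annotated elements.

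Surroundings were also richer in A and T. The window around the 39 genes was 60.8% A and T at the median, with a range of 59.1% to 62.0%. The median of the other genes was 57.1%, and that of the neighbouring protein-coding genes was 60.8%. The satellite motif AATAT was searched for on both strands as runs of at least 4 tandem units, 20 bases. The assembled arms held 72 such runs, and satellite arrays are largely missing from the assembly. Of the 39 genes, 2 (5.13%) held 1 run or more, against 0.106% of the other genes and 0.990% of the neighbouring protein-coding genes. These were Myo81F and Pzl, with spans of 1966 and 709 kb. The longest of the other genes spanned 434041 bases, and the shares are counted per gene and not per base. Myo81F, the longest of the 39, held 9 runs, all in introns. In the same window around the midpoint, 4 of the 39 genes (10.3%) had a run, against 3.96% of the other genes and 8.91% of the neighbouring protein-coding genes. The runs in Myo81F had 4 to 58 units. One of them is shown because AATAT satellite is the DNA to which D1 is known to bind. It is given on the gene's strand in the RefSeq Release 6 genome, with the run in capitals and 30 bases on each side. The Myo81F stretch lies at chr3R:1462230-1462309 on the plus strand, and it begins with the end of a longer run of the same unit.
Myo81F: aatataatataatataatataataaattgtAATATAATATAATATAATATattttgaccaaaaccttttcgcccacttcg
Myo81F was among the lowest of the 39 genes, with 4.59 normalized counts per kb. These letters describe the DNA and do not show binding.

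Many of the genes had exon sequence that recurs in the genome, which bears on how their reads could be assigned. A level is less certain where reads could come from several places. For each gene, the share of its 100-base exon windows that occur again exactly elsewhere in the genome was counted on both strands. In 15 of the 39 genes more than 1% of the windows recurred (38.5%), against 4.09% of the other genes and 14.9% of the neighbouring protein-coding genes. In 22 genes no window recurred, and the median level of these 22 was 310 normalized counts per kb. Highest were CG40439 with 100% of its windows, CG40813 with 88.4% and rl with 77.5%. The genes CG40472, uex and cta followed with 25.8%, 25.2% and 22.1%. In a search that allowed mismatches, 20 of the 39 genes had at least 1 exon stretch of 100 bases or more in a copy of at least 95% identity. This search was run on the 39 genes only, so no share of other genes can be set beside it.

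**Figure D4:**
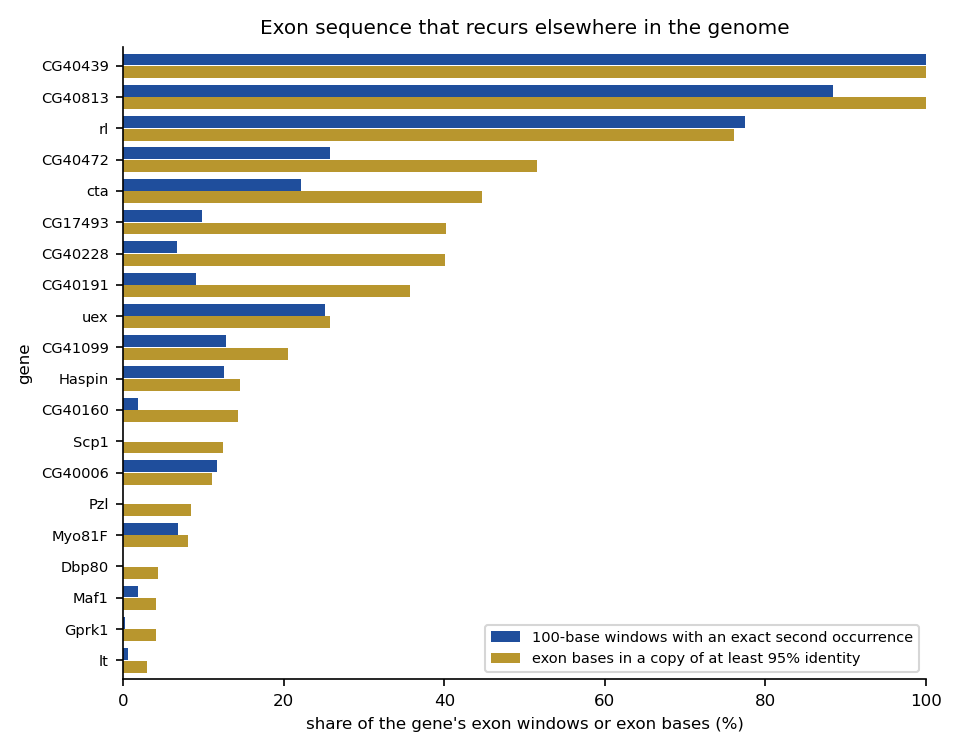
For the 20 genes with a copied exon stretch, the upper bar gives the percentage of 100-base exon windows with an exact second occurrence, and the lower bar the percentage of exon bases in a copy of at least 95% identity. CG40439, CG40813 and rl have the highest shares of recurring windows, 100%, 88.4% and 77.5%.

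Where a copy is annotated as a gene, its own level could be set beside that of the member. The G protein gene cta averaged 6840 normalized counts, whereas the pseudogene CR40005, which repeats 5 consecutive exon stretches of cta, averaged 5.96. The MAP kinase gene rl averaged 8895 normalized counts, against 85.1 for the pseudogene CR42653 and 58.9 for the pseudogene CR40190. Of the exon bases of rl, 5777 (76.1%) lie in a copy, the longest of 5320 bases at 97.4% identity. CR42653 and CR40190 overlap the copies of rl by only 420 and 465 exon bases. In both cases nearly all of the summed normalized counts stood under the gene and few under its pseudogene copies. These totals are not scaled by length and do not show where the reads came from. For CG40472 the order was the other way round, with 904 normalized counts against 6333 for ND-AGGG, the gene of a mitochondrial complex I subunit. CG40813 and CG41562, which share up to 99.5% identity, both lay near the floor with 3.46 and 2.27 normalized counts. The other near-identical genes on X, CG46504 to CG46522, had no listed level, so the level of this family as a whole is not known. CG40439 is identical over all its exons to CG46302, for which no level was listed. The 1964 normalized counts of CG40439 therefore cannot be assigned to 1 of these genes. How the authors' counting divided reads between identical copies is not given in the sources used here.

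Coding stretches of 4 genes are shown with the places where they recur, because a read that falls within such a stretch matches both places exactly or with few differences. They are from the RefSeq Release 6 genome, 5′ to 3′ on the strand of the gene, and capitals mark a base that differs between gene and copy. The cta stretch at chr2L:22991583-22991732 on the plus strand recurs with no difference over 150 bases at chr2L:22949498-22949647 on the minus strand, in the pseudogene CR40005.
cta: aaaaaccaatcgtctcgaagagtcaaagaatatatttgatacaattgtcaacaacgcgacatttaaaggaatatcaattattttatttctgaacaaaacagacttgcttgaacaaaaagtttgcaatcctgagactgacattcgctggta
The CG40472 stretch at chr3L:24927407-24927530 on the plus strand recurs with no difference over 124 bases at chr3L:24976489-24976612, in an exon of ND-AGGG.
CG40472: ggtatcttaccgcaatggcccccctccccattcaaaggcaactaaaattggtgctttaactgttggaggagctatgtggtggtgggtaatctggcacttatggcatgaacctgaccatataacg
The CG40813 stretch at chrX:22143491-22143640 on the plus strand recurs with no difference over 150 bases at chrX:22148222-22148371, in the gene CG46504, 1 of a row of near-identical genes on X.
CG40813: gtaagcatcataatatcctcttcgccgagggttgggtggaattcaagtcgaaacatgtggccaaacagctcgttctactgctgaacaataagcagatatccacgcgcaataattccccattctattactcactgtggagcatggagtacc
The CG41099 stretch at chr3R:3867500-3867608 on the plus strand recurs with 1 difference over 109 bases at chr3R:3870903-3871011, where no gene is annotated.
CG41099: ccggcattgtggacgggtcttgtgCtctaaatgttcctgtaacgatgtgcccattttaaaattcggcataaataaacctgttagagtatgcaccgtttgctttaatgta
CG41099 copy: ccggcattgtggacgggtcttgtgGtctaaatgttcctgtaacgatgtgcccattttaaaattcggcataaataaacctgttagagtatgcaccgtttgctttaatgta
The first 3 pairs cannot be told apart within the stretch, and the last pair differs at 1 base. The stretches of CG40472 and CG41099 are shorter than a read of 150 bases, but the copies reach beyond them. For CG41099 the copy takes in 902 exon bases at 99.0% identity. For CG40472 the copied stretches take in 237 of 460 exon bases (51.5%).

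Some exons also overlap another annotated feature at the same place. CG17490 shares 2313 of its exon bases (80.4%) with lncRNA:CR46268 on the same strand, and the lncRNA averaged 1962 normalized counts against 1701 for CG17490. In CG40191, 35.5% of the exon bases lie in an element of the 1360 family. The uex gene shares 960 exon bases (21.2%) with asRNA:CR45139 on the opposite strand, which averaged 59.6 normalized counts against 14803 for uex. Set1 shares 257 exon bases (4.63%) with MED21, a Mediator subunit gene on the opposite strand, at 3831 normalized counts against 2416 for Set1. Whether the authors' counting used strand is not given in the sources used here, so the 2 strands may not be separated in these values.

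Mobile elements inside the genes were listed separately in the table and had low levels beside their host genes. The Ensembl annotation placed 252 insertions inside 23 of the 39 genes, and 163 of them, in 19 genes, had a listed level. It differs from the RefSeq annotation used above for the share of bases in elements. In Haspin, for example, Ensembl placed 1 insertion, whereas RefSeq elements took up 0% of the span. Their median was 4.31 normalized counts, with quartiles of 1.62 and 9.53, and the 3200 listed insertions elsewhere had a median of 3.70. INE-1 was the most frequent family with 54 of the 163. Per kb, 162 of the 163 insertions lay below the exons of their host gene, and the exception lay in Myo81F, at 36.3 per kb against 4.59 for the gene. Nipped-A, Nipped-B, p120ctn and d4 together held 115 of the 163. Nipped-A held 48 listed insertions, whose sum of 1779 normalized counts equalled 7.48% of the gene's own mean. A copia insertion had 711 of these and a diver2 insertion that overlaps an exon had 699. As with copied exons, a read from an element family may match several insertions, and how the counting divided such reads is not given. A listed level therefore need not come from that insertion alone. Nipped-B held 41, with a median of 5.20 normalized counts and a sum equal to 1.51% of the gene's mean. In 3 genes of the lower set the sum of the insertions exceeded the gene. The 5 listed insertions of Snap25 summed to 48.0 normalized counts against 11.4 for the gene, the 12 of Myo81F to 83.5 against 29.95 and the 10 of Pzl to 19.3 against 12.1. The other 4 genes of the lower set with listed insertions had smaller sums, equal to 31.8% of the gene's mean in CG17684, 8.78% in TpnC4, 2.96% in CG40470 and 0.889% in CG40486.

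**Figure D5:**
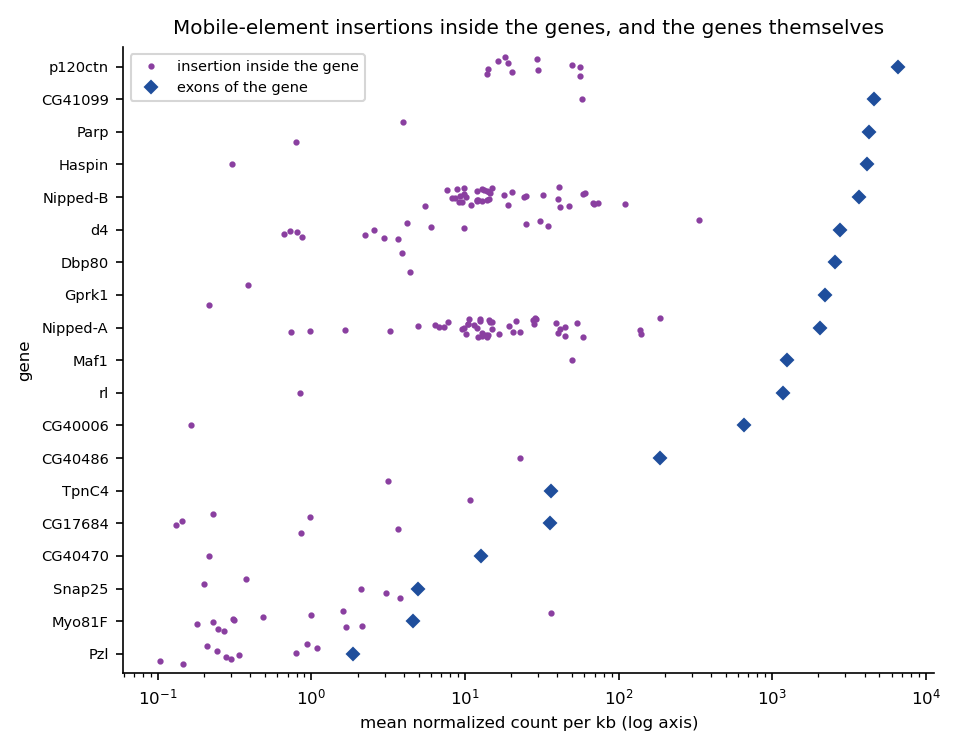
Each row is 1 of the 19 genes with a listed insertion, ordered by level. Diamonds give the gene's mean normalized count per kb of exon and small points that of each insertion inside it, on a log axis; 162 of 163 insertions lie left of their gene.

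Annotated genes nested inside the members were near the floor too. The 11 listed ones, noncoding RNAs and pseudogenes in 7 of the genes, had between 0.727 and 12.4 normalized counts. Of all nested genes, 5 lie in Myo81F, and the 4 of these with a level had at most 2.95 normalized counts.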

How the data were processed

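Ovary RNA was sequenced from D1 mutant and control females, 3 libraries each, with rRNA depletion and paired-end reads of 150 bp. Reads were cleaned (BBTools), aligned (STAR, genome BDGP6.32) and counted on genes and mobile elements (TEtranscripts) by the authors, who then fitted DESeq2 1.37.4. The annotation release, counting mode and use of strand are not given in the sources used here. In the deposited table the signal used is the authors' mean normalized count over all libraries. Its other columns hold the authors' comparison of the genotypes (fold changes, their errors, test statistics, p-values and marks of raised or lowered features). They were not used. The planned count test needed counts per library, so no test was made, and the depth per library is unknown. The 6 small RNA libraries were not analysed here.

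The table had 18049 rows. The 9 rows with no feature name were left out, and only the first row of 1 repeated identifier was kept, which left 18039 features and 14303 genes. Of these, 14194 had a position and exon length in the Ensembl 115 annotation (BDGP6.54, the same assembly as RefSeq Release 6). Parp appears there as Parp1. The shares of bases in mobile elements, the soft-masked bases and the printed sequences came from RefSeq. The insertions inside genes, their families and the features that overlap exons came from the Ensembl annotation. Copies were searched with blastn 2.17.0 (95% identity, 100 bases). The window count was tested on simulated sequences. Genes named in the text are all members plus D1, 8 other heterochromatin genes, tissue markers and the genes that overlap or copy a member. Coding stretches to print were sought in a preset list of genes off arm 2R: cta, CG41099, CG40228, CG40472 and CG40813. No stretch qualified in CG40228. Each printed stretch comes from the longest alignment on the same arm that held a usable one. It is the longest of up to 150 bases that lies in coding exons without a gap. Among stretches of equal length, the one with the most differences was taken. The members and lists were chosen with earlier results of these data known. Analyses used Python with numpy, pandas and scipy.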

Additional observations from a re-analysis of the deposited data

How the results depend on the processing

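Alternatives changed the size of the summary values. The ratio of the members' median to that of the genes beside them stayed above 1 in each of the 6 alternatives run on it. Not all of these kept the 39 genes: the minimum of 10 normalized counts left out CG40813 and CG40198. The ratio of 5.80 was 6.16 with the longest transcript as length, 13.3 with no scaling by length and 2.20 once genes under a mean of 10 normalized counts were left out. With settings chosen after seeing the data it was 3.83 against protein-coding genes, 1.45 against neighbouring protein-coding genes and 1.27 among genes with no recurring exon window. The last setting is the one that came nearest to 1, and it kept 22 of the 39 genes. Their median of 310 lay below the 325 of the other protein-coding genes. The median of 1245 per kb was 4841 with no scaling by length, a value in another unit, and 310 among the 22 genes with no recurring window. The count of 8 genes in repeat-rich DNA was 5 within the gene itself, 6 at 40% and 39 with soft-masked bases in place of annotated elements, a level that 15.2% of the other genes also reached. No paired analysis was possible because the deposited table holds no values per library. For the same reason, leaving out each library was not run. Without replicate values or depth, no error can be given for any level, and levels under about 10 normalized counts rest on few reads.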
